A study of Saccharomyces cerevisiae with 3 samples.

Results

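The genes described are those that give haploid yeast its mating identity and carry the pheromone signal. The set comprised 4 genes of alpha cells, MF(ALPHA)1, MF(ALPHA)2, STE3 and SAG1, a pair of genes of a cells, STE2 and STE6, and 4 genes that both haploid types use, GPA1, STE4, STE18 and FUS3. They were chosen by name, through the gene symbols of the platform annotation, with earlier results of these data known. A value was required on at least 2 arrays. Of the 10 genes, 8 met this, out of 6167 genes or unnamed features on the array. STE2 had a probe but no value on any array, and MF(ALPHA)1 was not analysed here.

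The treated cells were Saccharomyces cerevisiae S288C in exponential growth in YPD, a rich glucose medium, at 25 C, exposed to 1.5 uM fluazinam for 2 h in 100 ml cultures. Fluazinam is an agricultural fungicide that uncouples oxidative phosphorylation. The untreated cells were S288C grown in the same medium and kept for another 2 h with nothing added, and the solvent of the fungicide stock was not named. The labels gave neither mating type nor genotype; S288C is known as a haploid strain of the alpha type that carries an inactive ho allele, so treated and untreated cells share that background.

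PolyA RNA of treated cells, labelled with Cy5, and of untreated cells, labelled with Cy3, was hybridised together on each of 3 arrays, called independent biological samples in the series' design text. The value per gene and array was a normalised log ratio, read as log2 of treated over untreated, so 1 is a doubling and -1 a halving. Neither base nor direction was stated: a natural log would make every fold larger, and the opposite direction would turn every sign given. Cy5 always marked the treated cells, so dye and treatment cannot be told apart for a single gene. A ratio carries no level, so the genes cannot be ranked by abundance. No intensities were given, and the number of arrays limits the precision. The share of probes with a value was 71.2% to 83.6% per array, and the correlation between arrays across genes was 0.434 to 0.629 (Pearson's r; genes are not independent replicates).

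A haploid yeast cell secretes the pheromone of its own type and carries the receptor for that of the other. Alpha cells secrete alpha-factor and sense a-factor through Ste3, while a cells secrete a-factor, exported by Ste6, and sense alpha-factor through Ste2. Both receptors free the same Gbeta-gamma dimer, Ste4 and Ste18, from the Galpha subunit Gpa1, and a kinase cascade then activates Fus3, which stops the cell cycle and turns on mating genes through the transcription factor Ste12. In alpha cells the regulator alpha1, with Mcm1, activates alpha-specific genes, and alpha2, with Mcm1 and the corepressor Tup1 and Cyc8, represses a-specific ones.

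None of the 6 members measured on all 3 arrays passed the test, limma's moderated test with Benjamini-Hochberg adjustment over all 3802 features at a threshold of 0.05, which called 7.86% of the features. At an unadjusted p under 0.05, 3 members were lower and 1 was higher, a level that 29.7% of all features reached. The measured alpha-specific members had means of -0.74 to -1.11, the a-specific STE6 a mean of 0.76, and the shared signalling genes means of 0.10 to 0.27. In RNA of whole cultures, fewer cells that express a gene and less RNA per cell cannot be told apart.

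The arrays gave values for alpha-specific genes more completely than for a-specific ones. The alpha-specific list, which adds AFB1 to the 4 members, had 4 genes with a probe, and all 4 had a value on every array, 12 of 12 possible values. Among all 6167 features, 3802 had a value on every array and 640 had none. The a-specific list, which adds MFA1, MFA2, BAR1, AGA2 and ASG7 to STE2 and STE6, had 9 of 21 possible values, or 42.9%, against 77.3% over all features. STE2 and the a-factor gene MFA2 had no value, AGA2 and ASG7 had 1 each, the other a-factor gene MFA1 and the alpha-factor protease gene BAR1 had 2 each, and STE6 had 3. Of the mating-type cassette genes, which are in another list, the silent a1 gene HMRA1 had none. HMRA2 and MATALPHA2 had 2 each, and MATALPHA1, HMLALPHA1 and HMLALPHA2 had 3 each. Why spots lacked a value was not stated, so a missing value is not evidence of a missing transcript, and the mating type was not tested by any level here.

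**Figure D1:**
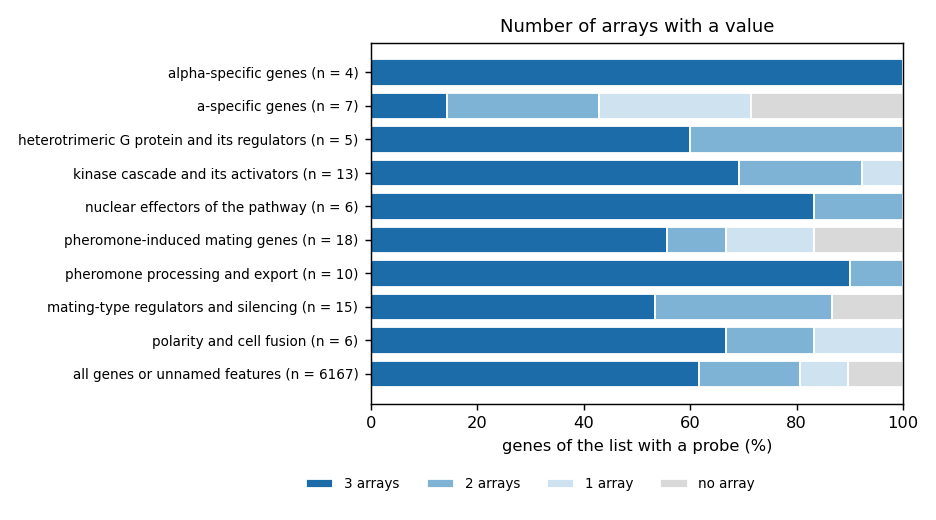
The bars show, for each list of pathway genes and for all features, the share of genes with a probe (x axis, %) that had a value on 3, 2, 1 or no arrays; n is the number of genes with a probe. All 4 alpha-specific genes had values on 3 arrays, while 1 of 7 a-specific genes did.

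MF(ALPHA)2 (YGL089C), the less expressed of the pair of genes for alpha-factor, had log2 ratios of -0.09, -1.90 and -1.33 on replicates 1 to 3. All 3 arrays were below 0, with replicate 1 close to it. The mean was -1.11 ± 0.92 (SD, n = 3), a ratio of 0.464, with a 95% interval of -2.0 to -0.22 before adjustment, and it did not pass (limma adjusted p = 0.106). It ranked 302nd from the lowest of 3802 features. Precursors from both alpha-factor genes hold near-identical copies of the peptide, and the probe's sequence was not used here, so transcripts of MF(ALPHA)1 may share this signal.

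SAG1 (YJR004C) encodes alpha-agglutinin, the surface protein by which alpha cells stick to a cells. Its log2 ratios were -1.41, -1.86 and 0.12. Replicates 1 and 2 were well below 0 and replicate 3 was slightly above it. The mean was -1.05 ± 1.04 (SD, n = 3), with an interval of -2.0 to -0.09 (limma adjusted p = 0.138).

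STE3 (YKL178C), the receptor for a-factor, stood at -1.30, -0.57 and -0.34, so every array was below 0 and replicate 1 was the lowest. Its mean was -0.74 ± 0.50 (SD, n = 3), a ratio of 0.601, with an interval of -1.43 to -0.04 (limma adjusted p = 0.148). The spread of MF(ALPHA)2 and SAG1 over the arrays, SDs of 0.92 and 1.04, was about double the median SD of all features, 0.461, while that of STE3 was near it.

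AFB1 (YLR040C), another gene expressed in alpha cells and not among the 10, had -0.57, -1.17 and -0.24, again below 0 on each array, and a mean of -0.66 ± 0.47 (SD, n = 3; limma adjusted p = 0.181). Of the 4 alpha-specific genes with values, 3 were thus below 0 on all 3 arrays, which held for 27.1% of all features. The 4 means were all below 0, as were 1910 of the 3802 means over all features. The median of the 4 was -0.89, beside -0.0049 for all features. By array the median of the 4 was -0.93, -1.51 and -0.29, against 0.05, -0.07 and -0.03 for all features, so the distance was smallest on replicate 3.

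**Figure D2:**
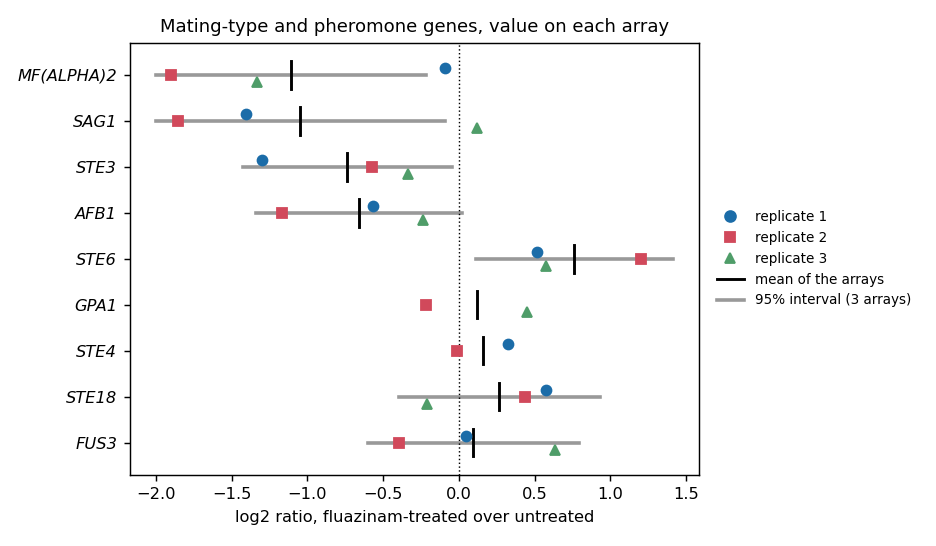
Each point is the log2 ratio of treated over untreated cells (x axis) on 1 array for 1 gene (y axis); black ticks are means and grey bars 95% intervals of the limma fit for genes with 3 arrays. All values of MF(ALPHA)2, STE3 and AFB1 were below 0, SAG1 had 1 value above it, all values of STE6 were above 0, and the shared genes GPA1, STE4, STE18 and FUS3 had values on both sides.

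STE6 (YKL209C), the ABC transporter that exports a-factor from a cells, had log2 ratios of 0.52, 1.20 and 0.57. All were above 0, which held for 25.2% of all features, and replicate 2 was the highest. The mean was 0.76 ± 0.38 (SD, n = 3), a ratio of 1.70, with an interval of 0.11 to 1.41 (limma adjusted p = 0.119). Its lowest value, 0.52, was above the highest of MF(ALPHA)2, STE3, SAG1 and AFB1, 0.12. None of these genes passed, and how many of all features lay above the alpha-specific genes in this way was not counted. Of the other a-specific genes, MFA1 had 0.54 and 0.04 on replicates 1 and 2, and BAR1 had 0.38 and -0.27 on the same arrays. ASG7 had 0.92 on replicate 3 alone and AGA2 0.05 on replicate 1 alone. STE6 therefore stands for the a-specific genes by itself among features tested on 3 arrays. MFA1, BAR1 and AGA2 each had a value under 0.12, the highest of the alpha-specific genes.

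The subunits of the G protein showed small ratios of mixed sign. GPA1 (YHR005C), the Galpha subunit, had no value on replicate 1 and log2 ratios of -0.22 and 0.45 on replicates 2 and 3. STE4 (YOR212W), the Gbeta subunit, had 0.33 and -0.01 on replicates 1 and 2 and none on replicate 3. Both were tested in a fit of the 4979 features with at least 2 values, which called 4.8% of them, with replicate 1 dropped for GPA1 (mean 0.12, interval -0.74 to 0.97, limma adjusted p = 0.853) and replicate 3 for STE4 (mean 0.16, interval -0.64 to 0.95, adjusted p = 0.784). In that fit none of the 8 members passed either.

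STE18 (YJR086W), the Ggamma subunit, had 0.58, 0.43 and -0.21, with replicate 3 alone below 0. The mean was 0.27 ± 0.42 (SD, n = 3), with an interval of -0.40 to 0.93 (limma adjusted p = 0.567). FUS3 (YBL016W), the mitogen-activated protein kinase at the end of the cascade, had 0.05, -0.39 and 0.63. Its mean of 0.10 ± 0.52 (SD, n = 3) was smaller than its spread, with an interval of -0.60 to 0.79 (limma adjusted p = 0.856). For these 4 genes the intervals held both a fall and a rise, and the widest, that of GPA1, ran to a log2 of 0.97. Changes of nearly 2-fold upward were therefore within the error of these arrays.

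In order of their means, the 6 members on 3 arrays ran from MF(ALPHA)2 through SAG1, STE3, FUS3 and STE18 to STE6. The intervals of neighbours in that order overlapped. That of STE6 lay above those of all 3 alpha-specific members. These intervals came from the moderated limma fit, before adjustment, and none of these members passed. In the limma fit without moderation, the adjusted p was 0.407 for MF(ALPHA)2, 0.449 for SAG1, 0.373 for STE3 and 0.328 for STE6. Intervals were not computed for that fit, so whether STE6 stays separated without moderation was not tested. An unadjusted limma p under 0.05, which puts an interval clear of 0, was reached by 29.7% of all features. How many pairs of features were separated in this way was not counted. The median of the 6 was -0.32, with 3 means above 0 and 3 below. Of the 6, 3 had 1 sign on every array, near the 52.3% of all features.

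Leaving out an array did not change the side of 0 for MF(ALPHA)2, SAG1, STE3, STE6 or STE18, although the sizes moved. MF(ALPHA)2 was at -1.62 without replicate 1 and at -0.71 without replicate 2. SAG1 was at -1.63 without replicate 3 and at -0.64 without replicate 2. STE3 was at -0.45 without replicate 1, and STE6 ran from 0.54 without replicate 2 to 0.89 without replicate 1. FUS3 turned to -0.17 without replicate 3. With the median of each sub-grid of the array subtracted, MF(ALPHA)2 was at -1.29 and passed (limma adjusted p = 0.0487), the only member to do so under any setting tried. Under the same setting AFB1 was nearer 0, at -0.36, and GPA1 and STE18 were farther from it, at 0.54 and 0.60, while STE4 turned to -0.16 and FUS3 to -0.22.

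**Figure D3:**
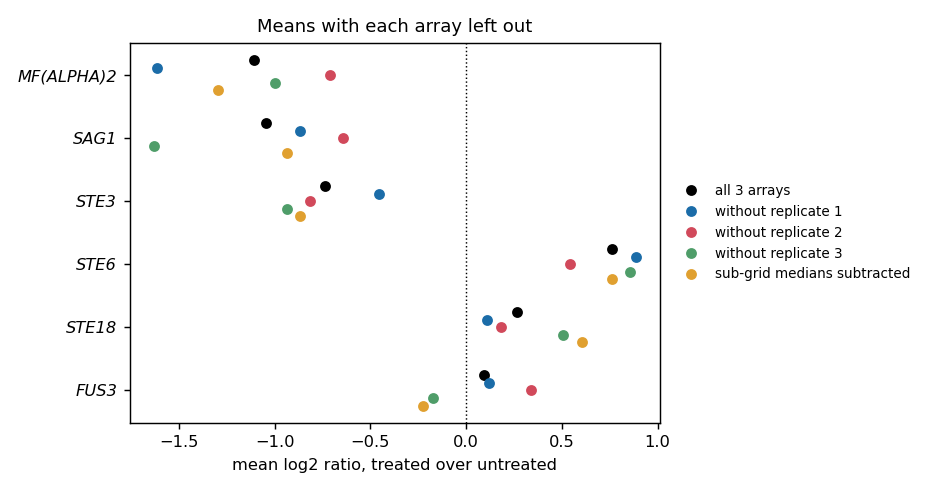
Points are mean log2 ratios of treated over untreated cells (x axis) for the 6 members with values on 3 arrays (y axis), with all arrays, with each array left out, and with sub-grid medians subtracted. The 3 alpha-specific members stay below 0 and STE6 and STE18 above it, while FUS3 lies on both sides.

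The wider pathway was described through 9 lists of 89 genes, 79 of them outside the 10. Of these 79, 47 had values on all 3 arrays. TUP1 fell and none rose, where 4.47% of all features fell and 3.39% rose. Their median was -0.10, with 20 means above 0 and 27 below, beside 1892 above and 1910 below over all features.

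TUP1 (YCR084C), the corepressor that alpha2 and Mcm1 bring to a-specific genes and that also represses many other gene groups, had log2 ratios of -1.84, -1.51 and -0.72. Each array was below 0, and replicate 3 was the nearest to it. The mean was -1.36 ± 0.58 (SD, n = 3), a ratio of 0.391, with an interval of -2.08 to -0.63 (limma adjusted p = 0.0434). The call was lost without replicate 1 (mean -1.11, adjusted p = 0.187), without replicate 3 (mean -1.68, adjusted p = 0.0652) and in the fit of features with at least 2 values (adjusted p = 0.0551). It held without replicate 2 (mean -1.28, adjusted p = 0.0298).

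CYC8 and MCM1, singled out after their values were seen because they act with Tup1 and alpha2, were also below 0 on all 3 arrays. That held for 27.1% of all features. CYC8 (YBR112C), the partner of Tup1, had -0.61, -0.74 and -0.07 (mean -0.47 ± 0.36, SD, n = 3; limma adjusted p = 0.292). MCM1 (YMR043W), the partner of alpha1 and alpha2, had -0.21, -0.88 and -1.03 (mean -0.71 ± 0.44, SD, n = 3; limma adjusted p = 0.149). Neither passed.

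The measured genes of the mating-type cassettes did not pass the test. MATALPHA1 (YCR040W), which encodes the activator alpha1, had 0.31, 0.24 and -0.29, and MATALPHA2 (YCR039C), which encodes the repressor alpha2, had 0.12 and 0.23 on replicates 2 and 3. MATALPHA1 averaged 0.09 ± 0.33 (SD, n = 3; limma adjusted p = 0.855). The silent locus HML holds copies of both genes, so the probes named MAT and HML may share signal. HMLALPHA1 (YCL066W), the silent alpha1 gene, had 0.69, 0.20 and 0.03 (mean 0.31 ± 0.34, SD, n = 3; limma adjusted p = 0.485). HMLALPHA2 (YCL067C), the silent alpha2 gene, had 0.46, 0.73 and 0.21 (mean 0.47 ± 0.26, SD, n = 3; limma adjusted p = 0.277). Both were above 0 on all 3 arrays, which held for 25.2% of all features. Since the probes may share signal, differences from MATALPHA1 cannot be assigned to the silent genes. HMRA2 (YCR096C), of the silent locus HMR, had -0.66 and 0.49 on replicates 2 and 3, on both sides of 0. The HML and HMR genes were named after their values were seen. Among the 8 genes of mating-type regulation and silencing with 3 values, TUP1 alone passed, and the median was -0.26.

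**Figure D4:**
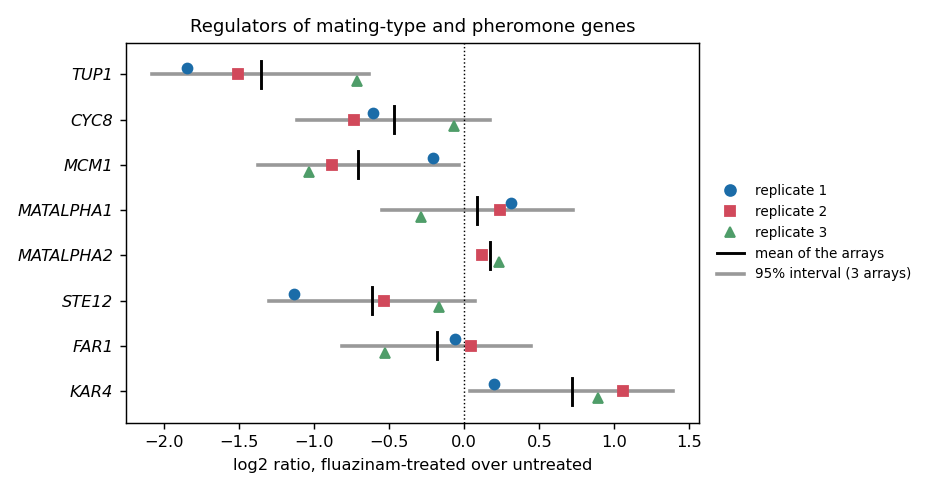
Points are log2 ratios of treated over untreated cells (x axis) on each array for regulators of mating-type and pheromone genes (y axis); black ticks are means and grey bars 95% intervals for genes with 3 arrays. TUP1, CYC8, MCM1 and STE12 were below 0 on all 3 arrays, KAR4 was above 0 on all 3, and MATALPHA1 and FAR1 had values on both sides.

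Of the 5 nuclear effectors with 3 values, none passed, and the median was -0.18. STE12 (YHR084W), the transcription factor of the pathway, had -1.14, -0.54 and -0.17, below 0 on each array (mean -0.61 ± 0.49, SD, n = 3; limma adjusted p = 0.211). FAR1 (YJL157C), the inhibitor of the cyclin-dependent kinase that stops the cycle after pheromone, averaged -0.18 ± 0.30 (SD, n = 3; limma adjusted p = 0.685). KAR4 (YCL055W), a transcription factor for nuclear fusion genes, had 0.20, 1.05 and 0.89, all above 0 (mean 0.71 ± 0.45, SD, n = 3; limma adjusted p = 0.148).

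Pheromone-induced mating genes had means on both sides of 0. Of 10 with 3 values, 7 means were above 0 and 3 below, beside 1892 above and 1910 below over all features. The median was 0.11, and none passed. PRM5 (YIL117C), a membrane protein gene induced by pheromone and also by cell wall stress, had the mean farthest from 0 of these, at 1.31 ± 1.07 (SD, n = 3), with 1.49, 2.28 and 0.15 on the arrays (limma adjusted p = 0.0919). AGA1 (YNR044W), the anchor subunit of a-agglutinin, had -0.72, -0.96 and 0.82, on both sides of 0. FUS1, a classical reporter of pheromone signalling that acts in cell fusion, had a value on replicate 2 alone, at 0.04. This list had 37 of 54 possible values, or 68.5%.

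The remaining lists held no gene past the threshold. Among the regulators of the G protein, AFR1 (YDR085C), which takes part in adaptation to pheromone and in shaping the mating projection, had 0.55, 1.22 and 1.43 (mean 1.07 ± 0.46, SD, n = 3; limma adjusted p = 0.0662). All 3 of its values were above 0. SST2, the GTPase-activating protein for Gpa1, was not analysed here. In the kinase cascade, the 8 genes other than FUS3 with 3 values had a median of -0.05, and means from -0.49 for CDC42 (YLR229C), the GTPase of cell polarity, to 0.44. CDC42 itself did not pass (limma adjusted p = 0.368).

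Of 9 pheromone processing and export genes with 3 values, 7 means were below 0, beside 1910 of 3802 over all features. The median was -0.18. RCE1 (YMR274C), the protease that trims a-factor and other prenylated proteins, had the mean farthest from 0, -0.66 ± 0.37 (SD, n = 3; limma adjusted p = 0.161). KEX2 and STE13, named for their role as proteases that mature alpha-factor, averaged -0.17 ± 0.18 and 0.07 ± 0.27 (SD, n = 3 each). KEX1, of the same list, had -0.29 and -0.11 on replicates 2 and 3 and no value on replicate 1. Of 4 polarity and fusion genes with 3 values, SPA2 (YLL021W), a scaffold of the polarised tip, had the mean farthest from 0, at -0.76 ± 0.36 (SD, n = 3; limma adjusted p = 0.119).

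**Figure D5:**
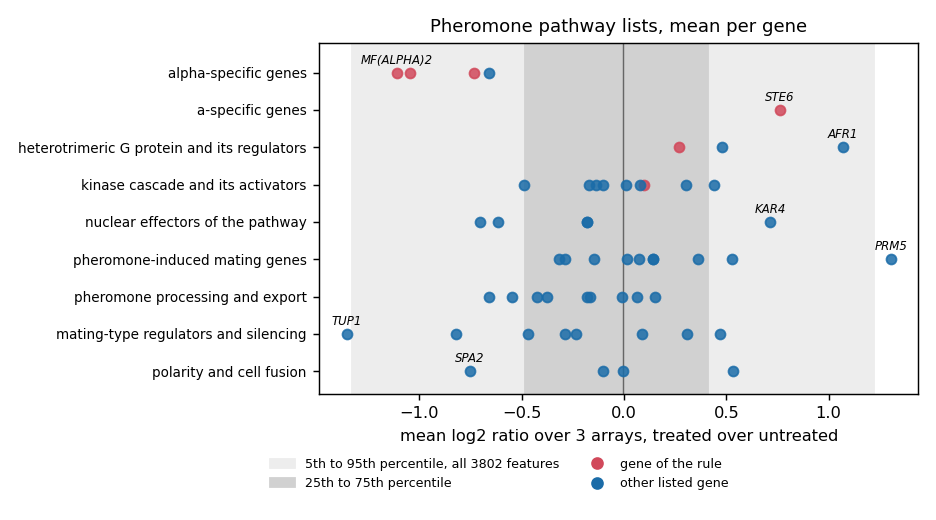
Each point is the mean log2 ratio of treated over untreated cells over 3 arrays (x axis) of 1 gene in a pathway list (y axis), red for the members and blue for other listed genes; shaded bands give percentiles over all 3802 features. The 4 alpha-specific genes lie at -0.66 and below, STE6 at 0.76, and TUP1 at -1.36 is the lowest of the listed genes.

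Outside the lists, the named genes whose 3 values lay nearest to those of MF(ALPHA)2 by Euclidean distance were VTC3 (distance 0.552), a subunit of the vacuolar polyphosphate synthase, DHH1 (0.625), a helicase that activates mRNA decapping, and SPF1 (0.643), an ATPase of the endoplasmic reticulum. Nearest to SAG1 were MRPL6 (0.399), a mitochondrial ribosomal protein, RPO21 (0.408), the largest subunit of RNA polymerase II, and GUP1 (0.462), a membrane acyltransferase. None of these 6 genes passed the threshold, and likeness over 3 arrays that share 1 treatment says little of any pair.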

How the data were processed

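The authors deposited 1 table, read here as log2 ratios. Before deposit they ran LOWESS normalization on spots flagged 0, per the labels. Nothing in those sources stated the scanner, the background correction, the log base or the ratio's direction. Of 6272 probes, 5308 had a gene symbol in the platform annotation. Entrez identifiers matched 5199 of 5203 genes to the R64 gene table, used for locus tags only. Probes of a gene were averaged per array, and each member had 1 probe. Means were set against 0 in limma 3.58.1 (lmFit, eBayes; R 4.3.3), with an intercept only and Benjamini-Hochberg adjustment over the whole table. The scripts were tested on simulated data of 3 arrays. There 8.69% of log2 changes of 1 and 62.3% of changes of 2 passed, so a change of 1 would mostly be missed. Whether each untreated RNA came from its own culture was not stated, so p-values rest on the spread between these arrays, moderated with that of all features.

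The members and lists were chosen with earlier results of these data known. Named genes were the 10 members, listed genes past the threshold or otherwise the list's largest absolute mean, MATALPHA1, MATALPHA2, STE12, FUS1, FAR1, SST2 and AGA1, and the 3 nearest genes of MF(ALPHA)2 and SAG1. Other listed genes are named for their role or were singled out after their values were seen. Alternatives were centring, scaling, values on at least 2 arrays, robust or no moderation, array weights, sub-grid medians, the first listed probe and leaving out each array.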

Additional observations from a re-analysis of the deposited data

How the results depend on the processing

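The count of members past the threshold was 0 in every fit tried except with sub-grid medians subtracted, where it was 1, MF(ALPHA)2. The sub-grids were inferred from the probe numbers, and the cause was not tested. In the fit of features with at least 2 values it was 0 under all alternatives. The count among other pathway genes, 1 with all arrays, was 0 with values on at least 2 arrays and 0 without moderation, and 0 to 1 over the arrays left out. The count over all features, 299, was 1 without moderation and 0 to 657 over the arrays left out. It was 0 without replicate 3, 11 without replicate 1 and 657 without replicate 2. The median of the members was 0.11 with values on at least 2 arrays, since GPA1 and STE4 then enter it, and -0.55 to -0.17 over the arrays left out. With sub-grid medians subtracted, FUS3 turned to -0.22, MATALPHA1 to -0.19 and STE4 to -0.16. Without a change of sign or call, GPA1 moved to 0.54, STE18 to 0.60, AFB1 to -0.36, MCM1 to -0.37, CYC8 to -0.78, FAR1 to -0.33, KAR4 to 0.45, RCE1 to -0.23 and AGA1 to -0.013, each by over 1.5 times. Over the arrays left out, MATALPHA1 ran from -0.025 (without replicate 1) to 0.27, AGA1 from -0.84 to 0.047 (without replicate 2) and FUS3 from -0.17 (without replicate 3) to 0.34. TUP1 also lost its call without moderation (adjusted p = 0.316). Each ratio already pairs treated with untreated RNA of 1 array, so the test against 0 is paired by array. Whether the untreated RNAs came from separate cultures was not stated. Signal over background was unknown.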

Other observations

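Some listed genes outside the rule for named genes were singled out after their values were seen. SIR1 (YKR101W), which helps to silence the spare mating-type cassettes, had log2 ratios of 1.23 and 1.03 on replicates 2 and 3 and no value on replicate 1 (limma adjusted p = 0.101 in the fit of features with at least 2 values). HO (YDL227C), the mating-type switching endonuclease, inactive in S288C, had -0.40, -1.29 and -0.78, all below 0 (mean -0.82 ± 0.45, SD, n = 3; limma adjusted p = 0.110). The phosphatase gene PTP2 (YOR208W), whose product acts on Hog1, had 1.15 and 0.67 on replicates 1 and 2 (limma adjusted p = 0.155 in the same fit as SIR1).

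The deposited table repeats values between probes. Of 88 genes with more than 1 probe, 65 had identical entries at all of their probes, SWI5 of the mating-type regulators among them. Missing values were counted as entries. Such probes are not separate measurements of a gene.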
